A study of Mus musculus with 12 samples.

Results

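Interferon-high CD8 T cells were CD8 T cells of mouse breast tumors that held many transcripts of interferon-stimulated genes, and they were chosen by their own counts. A cell was taken when it had at least 200 detected genes, less than 10% mitochondrial UMIs (unique molecular identifiers, each standing for 1 captured transcript), at least 1 *Cd8a* UMI, 0 *Cd4* UMIs and at least 4 UMIs summed over *Ifit1*, *Ifit3* and *Mx1*. This rule took 1185 of 14157 CD8 cells (*Cd8a* of 1 or more, *Cd4* of 0), a share of 8.37% (95% CI 7.92 to 8.84%), among 29715 cells of the whole series past the same filters. They were set against 10619 comparison cells with at least 1 *Cd8a* UMI and 0 UMIs of the 3 genes, of which 215 had a *Cd4* UMI. Another 2568 CD8 cells with 1 to 3 UMIs of the 3 genes belonged to neither class.

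The tumors came from MMTV-PyMT mice, a spontaneous breast cancer model in which a mammary tumor virus promoter drives the polyoma middle T oncogene in mammary epithelium. Mice were wild-type or carried the PAR2 G37I mutant, a protease-activated receptor that does not respond to coagulation factor Xa, and received no additional treatment; the labels gave no age. CD4/CD8 T cells were bead-selected from digested tumors of 3 wild-type and 3 PAR2 G37I mutant samples, CD11c+ cells from another 3 and 3, and both were frozen, thawed and sequenced on the 10x Genomics platform. The question behind the design was how tumor-infiltrating cells differ when this signaling is lost. The T cell matrix pooled its 6 samples with no map from cells to samples. Genotypes were therefore not compared, no test between groups was run, and the matrix counted as 1 sample.

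The barcodes of this matrix fell into 6 alphabetical runs, which were used as strata and were not linked to samples or genotypes. Runs 1 to 6 held 5223, 2344, 3455, 3554, 3468 and 5057 barcodes. The filters left out 42.4% of the barcodes in run 4 and 46.5% in run 5, but at most 5.44% in each of the other runs, so runs 4 and 5 stood apart. Distinct barcodes found in more than 1 run numbered 51, and 4 interferon-high cells carried such a barcode. Levels are given as CPM, the UMIs of a gene per 1000000 UMIs of a class of cells in a run. The ratio of a gene is its level in interferon-high over comparison cells within runs, combined over the runs by the Mantel-Haenszel method. The median ratio of a list is over all of its genes with a UMI in either class. Intervals are exact 95% intervals (Poisson for UMIs, Clopper-Pearson for shares) and cover counting error only.

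Type I interferons are secreted proteins that bind the receptor chains IFNAR1 and IFNAR2 and signal through the kinases JAK1 and TYK2. These kinases activate transcription factors that join IRF9 and bind interferon-stimulated response elements in the promoters of a large set of antiviral genes. Interferon gamma uses a separate receptor and shares many of the targets. In tumors, CD8 T cells meet interferons made by myeloid cells and by other T cells, and the response is known for antiviral proteins, antigen presentation, chemokines and feedback inhibitors.

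Interferon-high cells were found in every run, at unequal shares. Their share of CD8 cells was lowest in run 5, 4.62% (68 of 1473 cells, CI 3.60 to 5.82%). In runs 1, 2, 4 and 6 it was 7.44% (CI 6.54 to 8.42%), 5.99% (CI 4.97 to 7.14%), 8.79% (CI 7.39 to 10.4%) and 6.65% (CI 5.88 to 7.49%). Run 3 stood above the other runs with 16.3% (389 of 2388 cells, CI 14.8 to 17.8%), and its interval overlapped none of theirs. Without run 3 the share over the remaining runs was 6.76%.

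The rule used raw UMIs, so depth bears on who passed it. Interferon-high cells had a median of 5033 UMIs and comparison cells 4886. Cells with a *Cd8a* UMI and at least 2000 UMIs were therefore thinned to 2000 UMIs, and cells with fewer were left out. The *Cd8a*, *Cd4* and 3-gene conditions were applied again to the thinned counts. This left 10353 CD8 cells, of which 429 were interferon-high. The share was 4.14% (CI 3.77 to 4.55%), and run 3 was again the highest with 8.60% against 2.02 to 4.03% in the other runs. Median mitochondrial content was 3.66% in interferon-high and 4.23% in comparison cells. RNA of macrophages was most frequent in run 3, where 39.6% of interferon-high and 38.2% of comparison cells held a *C1qa* or *C1qb* UMI; its part in the share was not tested. Among strict T cells, which had a *Cd3d*, *Cd3e* or *Cd3g* UMI and no UMI of *C1qa*, *C1qb*, *Csf1r*, *Siglech*, *Epcam* and *Krt8*, the share was 15.9% in run 3 and 5.17 to 8.48% in the other runs.

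**Figure D1:**
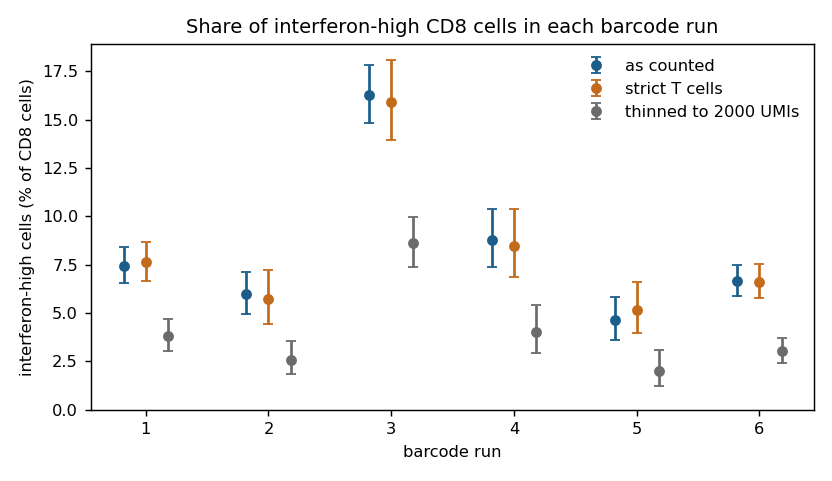
Share of CD8 cells (percent, y axis) that were interferon-high in each alphabetical barcode run (x axis), as counted, among strict T cells and after thinning to 2000 UMIs, with exact 95% intervals for counting error. As counted, run 3 lies at 16.3% and the other runs between 4.62 and 8.79%.

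*Ifit1* and *Ifit3*, which encode proteins that bind viral RNA or assist in its sensing, gave most of the UMIs that chose the cells. *Ifit1* had 5857 UMIs in interferon-high cells, 44.7% of all UMIs of the 3 genes, and was found in 93.4% of these cells. *Ifit3* gave 43.8% of the UMIs and was found in 96.2% of the cells. *Mx1*, a GTPase that blocks viral nucleocapsids, gave 11.5% and was found in 57.0% of the cells. A cell held a median of 8 UMIs of the 3 genes and at most 78. *Ifit1* (chr19:34640871-34650009) and *Ifit3* (chr19:34583531-34588731) are neighbours on the plus strand of GRCm38, whereas *Mx1* lies at chr16:97447035-97462907 on the minus strand. These values describe the rule.

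T cell and CD8 markers were present in nearly all of these cells. Of the 1185 cells, 1180 had a UMI of *Cd3d*, *Cd3e* or *Cd3g*, the signaling chains of the T cell receptor, and 5 did not. *Cd8b1*, the partner chain of CD8, was found in 95.02% of interferon-high and 87.6% of comparison cells, and in 4.52% of macrophages, which should lack it (median 16233 UMIs per macrophage). The T cell receptor complex list as a whole had a median ratio of 0.904 over 13 genes, and *Trbc2*, its most abundant gene, stood at 1631 CPM in interferon-high and 1774 CPM in comparison cells. A UMI of at least 1 of the 6 genes of other cell types in the strict definition was present in 352 interferon-high cells. The strict comparison held 832 interferon-high and 7887 comparison cells and is given beside some of the results.

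Across 5426 genes found in at least 10% of either class, 261 (4.81%) were higher in interferon-high cells by at least 1.5-fold with the same direction in every run, and 38 (0.700%) were lower by the same measure. The lower count was unstable, with 66 genes without run 3, 59 without run 6 and 128 with both classes within the depth quartiles of interferon-high cells. The classes were themselves set by interferon genes, so nothing is read from these shares. The median ratio of all genes was 0.948, between 0.923 and 0.968 in single runs. Strict T cells gave 264 higher genes, 240 of them shared (92.0% of the first list and 90.9% of the second), and 43 lower genes, 23 of them shared (60.5% and 53.5%). A smaller part of the lower than of the higher genes was thus shared, and the cause was not tested.

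The interferon genes outside the rule were higher as a group. This list joined antiviral effectors, ISG15 conjugation, nucleic acid sensors, transcription factors, the Ifi200 family, GTPases, chemokines and class I presentation, and 112 of its genes were in the matrix. Over all 112 genes, with no filter on detection, 106 had ratios above 1 and the median ratio was 4.61. Of the 5426 genes tested 1840 had ratios above 1, and their median was 0.948. Genes found in at least 10% of either class are here called widely detected. A gene can reach 10% in interferon-high cells alone and then has to be higher, so counts of higher interferon genes among the widely detected are not given as support. The median was between 4.27 and 4.85 in 5 runs and 6.14 in run 5, the run with the fewest interferon-high cells. Summed over the list, interferon-high cells had 32984 to 44679 CPM per run and comparison cells 17740.2 to 22062 CPM, so the classes did not overlap.

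Of the 4 interferon ligands in the list *Ifng* was detected, and interferon genes outside the list were not examined. *Ifnb1*, *Ifna2* and *Ifna4*, which encode type I interferons, had 0 UMIs in both classes, and a count of 0 allows up to 0.377 CPM in interferon-high and 0.0468 CPM in comparison cells. *Ifng*, which encodes interferon gamma, was at 110.1, 208 and 295 CPM (lowest, median and highest run) in interferon-high cells and at 74.0, 135 and 160.1 CPM in comparison cells. Its ratio was 1.72, with 1.33 in run 1 and 2.88 in run 2. Each run had the higher level in interferon-high cells, although the ranges of the classes overlapped across runs.

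Receptors and kinases of the pathway had a median ratio of 1.02, beside 0.948 for all genes tested. Of the 7 genes 6 were widely detected, and 0 were higher or lower by the measure used. Over all genes tested 4.81% were higher and 0.700% lower, so a count of 0 in a list of this size is near that share. *Ifnar1* and *Ifnar2*, the chains of the type I receptor, had ratios of 1.08 and 0.873. *Jak1* was at 329 to 400.4 CPM in interferon-high and 351 to 392 CPM in comparison cells, a ratio of 0.977. *Tyk2* had a ratio of 1.02. *Ifngr1*, the ligand-binding chain of the interferon gamma receptor and the most abundant gene of the list, had a ratio of 0.944. For each of these genes the run levels of the classes overlapped.

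Transcription factors of the response were higher in several cases. *Stat2* and *Irf9*, which encode subunits of the factor that type I interferon activates, were at 79.8 to 133 CPM and 78.9 to 149 CPM in interferon-high cells, and at 11.9 to 24.4 CPM and 29.9 to 52.5 CPM in comparison cells. Their ratios were 4.86 and 2.53. *Irf7*, the regulator of interferon production, had a ratio of 5.55, and for each of these genes every run of interferon-high cells lay above every run of comparison cells. *Irf1*, which interferon gamma induces strongly, was less separated, with a ratio of 1.41 and overlapping ranges. *Irf8*, a regulator of myeloid and dendritic cells, had a ratio of 0.676 over all cells and 1.22 among strict T cells, so its direction depended on the cells admitted. *Irf3* (0.904), *Stat3* (1.14) and *Stat4* (1.33) did not reach the fold used.

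Of 38 antiviral effectors 37 had ratios above 1, with a median of 6.12, and *Ifitm1* was the exception. *Rsad2*, which encodes viperin, an enzyme that makes a chain-terminating nucleotide, was at 217, 337 and 359 CPM in interferon-high cells. In comparison cells it was at 5.38, 10.4 and 13.5 CPM, which gave a ratio of 29.0. The classes were far apart in every run for this gene, with run ratios of 23.6 to 61.8. *Cmpk2*, a nucleotide kinase transcribed from the neighbourhood of *Rsad2*, had a ratio of 17.8, and *Ifit2*, a further RNA-binding family member, 22.5. *Oas2*, an RNA-activated oligoadenylate synthetase, had a ratio of 17.7 from 161 and 67 UMIs, with 9.36 to 166 in single runs and 31.4 with both classes within the depth quartiles of interferon-high cells. *Ifit3b* had the highest ratio of all genes tested, 45.0, at 78.1 CPM against 1.51 CPM, and was found in 33.7% of interferon-high and 0.857% of comparison cells. It is nearly identical in sequence to the rule gene *Ifit3* and lies beside it (chr19:34607970-34613401), so its counts and those of *Ifit1bl1* (ratio 15.6), a relative of *Ifit1*, are uncertain. *Slfn5*, a Schlafen family member, had a ratio of 26.6 over all cells, 49.8 among strict T cells and 43.4 without run 3, whose own ratio was 14.7.

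Some genes of the antiviral list encode surface or membrane proteins. No list of these was fixed, so single genes are given and nothing is read from them as a group. *Bst2*, or tetherin, which holds budding virus at the membrane, was at 537 to 886 CPM against 155 to 335 CPM, a ratio of 3.05. *Ly6a*, which encodes Sca-1, an antigen of activated and memory T cells, had a ratio of 3.14. *Ifi27l2a*, a small interferon-induced membrane protein, was the most abundant gene of the antiviral list with 2489 CPM against 933 CPM, and its ratio was 2.35. *Ifitm3*, which blocks viral fusion, had a ratio of 3.34 with overlapping ranges, and 42.2% of its UMIs came from 10 cells. Its relatives *Ifitm1* and *Ifitm2*, too rarely detected to be called, had ratios of 0.489 and 1.21, were higher in 2 and 4 of 6 runs and overlapped between classes.

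ISG15 is a ubiquitin-like protein that is attached to other proteins, and all 5 genes of its cycle had ratios above 1, with a median of 8.65. *Isg15* itself was at 617, 1024 and 1308 CPM in interferon-high cells and at 47.5, 90.0 and 117 CPM in comparison cells. Run 2 was lowest and run 1 highest in both classes, and the ratio was 11.5. *Uba7*, the activating enzyme, had a ratio of 2.88, *Ube2l6*, the conjugating enzyme, 8.65 and *Herc6*, the ligase, 7.83. *Usp18*, which removes ISG15 and also blocks signaling at IFNAR2, had a ratio of 19.0, from 138 to 271 CPM against 5.64 to 14.3 CPM.

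Feedback inhibitors other than *Usp18* were less separated. *Socs1*, an inhibitor of JAK kinases, was at 141 to 243 CPM against 83.4 to 121 CPM, a ratio of 1.96 with no overlap. *Socs3* and *Cish*, which act mainly on cytokine receptors of other families, had ratios of 1.12 and 1.46 and did not reach the fold used.

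Sensors of nucleic acids were higher in part, with ratios above 1 for 11 of 12 genes and a median of 2.85. *Ifih1* and *Ddx58*, which encode the RNA sensors MDA5 and RIG-I, had ratios of 11.8 and 5.18, and *Dhx58*, their relative, 10.5. *Zbp1*, a sensor of Z-form nucleic acids, was the most abundant at 514 to 755 CPM against 60.7 to 122 CPM, a ratio of 7.20. *Tmem173*, which encodes STING, had a ratio of 0.959 and *Aim2*, a DNA sensor, 1.06, and their run ranges overlapped. *Mb21d1*, which encodes the DNA sensor cGAS, had a ratio of 1.41 at 15.2 CPM against 11.1 CPM and was too rarely detected to be called.

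Nearly all genes of the Ifi200 family and of the interferon-induced GTPases had ratios above 1, and 5 of them were too rarely detected to be called. In the Ifi200 family, nuclear proteins that bind DNA, 10 of 11 genes had ratios above 1, with a median of 6.79. *Mndal* was the most abundant by UMIs with a ratio of 3.29, and *Ifi204* had the highest ratio, 16.6 over all cells, 72.2 among strict T cells and 32.0 without run 3. Macrophages held 127 CPM of *Ifi204*, more than the 82.8 CPM of interferon-high cells. These genes are close copies of one another, so the division of counts among them is uncertain. All 16 GTPases, which attack the vacuoles of intracellular pathogens, had ratios above 1, with a median of 5.22. *Ifi47*, the most abundant of them, was at 300.1 to 421 CPM against 75.6 to 96.1 CPM, a ratio of 4.37. *Gbp2* was at 204 to 274 CPM against 19.5 to 31.2 CPM, a ratio of 9.42, and *Iigp1* had a ratio of 18.5.

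Class I antigen presentation was higher by small steps from a high base. All 17 genes had ratios above 1, with a median of 1.57. *Tapbp*, the loading chaperone tapasin, was at 340.0 to 386 CPM against 130.4 to 181 CPM, a ratio of 2.29. *H2-T22*, a nonclassical class I gene, had a ratio of 2.19, *Psmb10*, a subunit of the immunoproteasome, 2.08 and *Nlrc5*, the transactivator of class I genes, 1.63. The heavy chain *H2-K1*, the most abundant gene of the list, was at 3808 to 5507 CPM against 3139 to 4611 CPM, so its classes overlapped across runs although interferon-high cells were higher within each run. Its ratio was 1.22 and that of *B2m*, the light chain, 1.23. Class I genes are similar in sequence, and counts of *H2-K1* and *H2-T22* are uncertain to that extent.

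*Cxcl10*, which encodes the chemokine that draws CXCR3-bearing T cells, was the most abundant of the 20 genes with the highest ratios. It was not typical of the 4 interferon-induced chemokines in the matrix, of which 1 was widely detected and 3 had ratios above 1, with a median of 1.34 and run medians from 0 to 227. It was at 640.1, 1059 and 1532 CPM in interferon-high cells and at 16.7, 36.1 and 58.0 CPM in comparison cells. Run 1 had the lowest level in interferon-high cells and the highest in comparison cells, and no run of one class reached the other. Pooled over runs the levels were 1144 CPM (CI 1120.4 to 1168) and 37.8 CPM (CI 36.3 to 39.4), and the ratio within runs was 28.0 (11.04 in run 1 to 58.2 in run 4). The gene lies at chr5:92346638-92348889 on the minus strand of GRCm38.

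By cells, 58.9% of interferon-high and 8.45% of comparison cells held a *Cxcl10* UMI. After thinning to 2000 UMIs, which left out 5 interferon-high and 289 comparison cells, the shares were 46.1 and 4.08%. Free RNA also gives such UMIs. Among CD4 T cells (median 4454.5 UMIs) 11.6% held 1 and among macrophages (median 16233 UMIs) 16.6%, both far below the interferon-high cells and above the comparison cells. Both of these types can express the gene, so they do not measure free RNA, and its part in the 8.45% was not tested. Of all CD8 cells with a *Cxcl10* UMI, 36.9% (CI 34.7 to 39.1%) were interferon-high. *Cxcl9*, a related ligand that interferon gamma induces, had 0 UMIs in interferon-high cells, which allows up to 0.377 CPM, and was at 0.437 CPM in comparison cells. *Cxcr3*, the receptor of both ligands, had a ratio of 0.843.

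**Figure D2:**
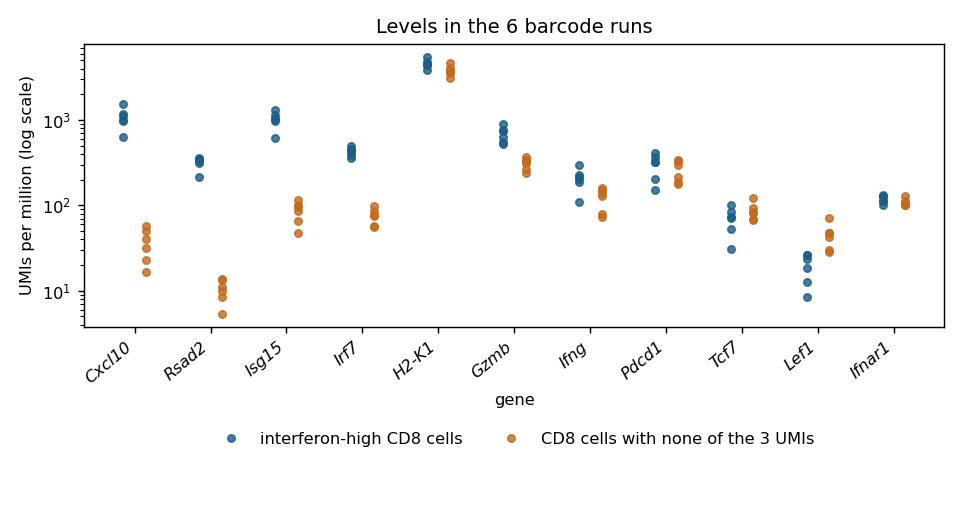
Levels of selected genes (UMIs per 1000000, log axis) in interferon-high and comparison cells, 1 point per barcode run. *Cxcl10* lies at 640.1 to 1532 CPM in interferon-high and 16.7 to 58.0 CPM in comparison cells, whereas the *Pdcd1* ranges overlap.

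Cells just outside the rule held the same genes at lower levels. The 330 CD8 cells with 3 UMIs of the rule genes had *Isg15* at 463 CPM, and the 171 cells with 4 UMIs at 636 CPM. The median ratio of the interferon genes outside the rule was 2.43 with 3 UMIs and 2.85 with 4 UMIs. The class is thus a range of a score, and whether its cells form a separate state was not tested.

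Along this range the genes followed different courses. With 1, 2 and 3 UMIs of the rule genes the interferon list had median ratios of 1.44, 2.12 and 2.43, and with 4 or 5, 6 to 9 and 10 or more UMIs 3.00, 3.74 and 5.89. *Cxcl10* rose most in the upper classes: its ratio was 1.02, 2.14 and 3.27 with 1, 2 and 3 UMIs, 5.01 with 4 or 5 UMIs, 13.4 with 6 to 9 and 52.3 with 10 or more, where it reached 2060.3 CPM. *Gzmb*, which encodes the cytotoxic protease granzyme B, had ratios of 1.11 with 1 UMI and 1.80 with 3, and 2.14, 1.85 and 2.41 in the classes above. *Lef1*, a transcription factor of naive T cells, had ratios of 0.889, 0.826 and 0.780 with 1 to 3 UMIs, and 0.473, 0.383 and 0.402 above. *Tcf7*, a factor of naive and progenitor cells, had ratios above 1 with 1 to 3 UMIs (1.08, 1.19 and 1.20). Its ratios were 0.969, 0.803 and 0.778 with 4 or 5, 6 to 9 and 10 or more UMIs. Within the first of these classes the *Tcf7* ratio was 1.15 with 4 UMIs and 0.772 with 5. *H2-K1* stayed between 1.07 and 1.26. Median depth was 4886 UMIs with 0 rule UMIs, 4438 with 3 and 5522 with 10 or more, and its part in these courses was not tested.

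**Figure D3:**
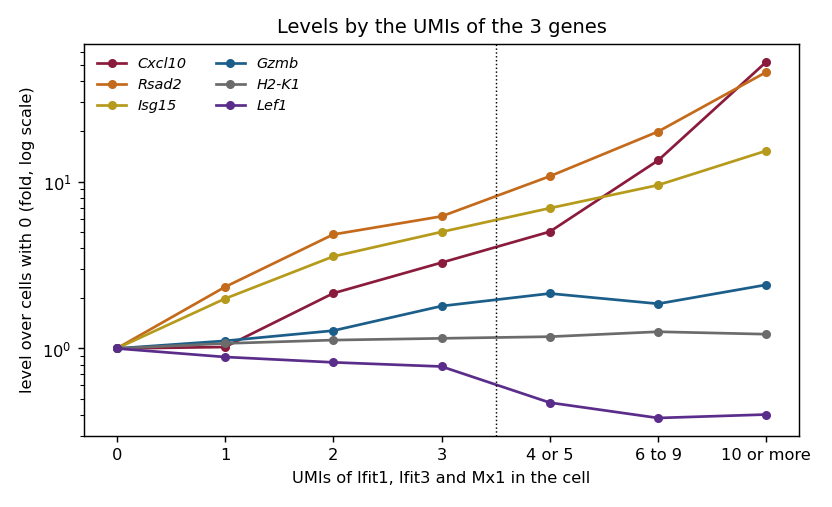
Ratio to comparison cells (y axis, log scale) of selected genes by the number of *Ifit1*, *Ifit3* and *Mx1* UMIs in a CD8 cell (x axis), with the threshold of the rule as a dotted line. *Cxcl10* goes from 1.02 with 1 UMI to 52.3 with 10 or more, and *Lef1* from 0.889 to 0.402.

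Exhaustion genes had a median ratio of 0.995, near the 0.948 of all genes. Of 13 widely detected genes among 16, 0 were higher and 1 was lower over all cells, whereas 2 were higher and 0 lower among strict T cells. Over all genes tested 4.81% were higher and 0.700% lower. *Nr4a2*, a nuclear receptor induced by antigen signals and the most abundant gene of the list, had a ratio of 0.936. *Pdcd1*, which encodes the inhibitory receptor PD-1, was at 152, 322 and 413 CPM in interferon-high cells and at 176, 256 and 341 CPM in comparison cells. Its ratio was 1.19, above 1 in 5 runs and 0.814 in run 2, and the ranges overlapped. By cells, a *Pdcd1* UMI was found in 59.7% (CI 56.8 to 62.5%) of interferon-high and 49.4% (CI 48.5 to 50.4%) of comparison cells, with the higher share in interferon-high cells in 6 of 6 runs, and in 38.1 and 34.2% after thinning. *Lag3*, another inhibitory receptor, had a ratio of 1.41 with run values from 0.837 to 1.75. Among strict T cells *Lag3* was at 1.53 and *Cd101*, a surface protein of late exhausted cells, at 1.60, and both passed the fold there. *Tox*, the transcription factor that establishes exhaustion, had a ratio of 0.914. *Havcr2*, which encodes the late exhaustion receptor TIM-3, was rare, at 10.7 CPM against 12.1 CPM. The lower gene was *Cd160*, an inhibitory receptor, with a ratio of 0.659 over all cells. It missed the fold used under several settings, among them strict T cells (0.785), thinning (0.701) and leaving out run 2 (0.751). With both classes within the depth quartiles of interferon-high cells it was at 0.835.

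Among effector genes *Gzmb* and *Ifng* were higher, and these were the 2 of 16 widely detected genes past the fold used, against 4.81% of all genes tested. The median ratio of the list was 0.986. *Gzmb* was at 525, 688 and 891 CPM in interferon-high cells and at 237, 317 and 366 CPM in comparison cells, and no run of one class reached the other. Its ratio was 2.17, from 1.86 in run 6 to 2.87 in run 5. Other cytotoxic genes did not follow: *Prf1*, which encodes the pore protein perforin, had a ratio of 0.876, *Fasl*, a death ligand, 1.11, and *Gzma*, another granzyme, 0.904 with run values from 0.277 to 1.40. *Ccl5*, the most abundant gene of the list and a T cell chemokine, had a ratio of 0.965, and *Tnf*, an inflammatory cytokine, 1.17.

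A *Gzmb* UMI was found in 55.6% of interferon-high and 33.9% of comparison cells, and in 41.9 and 23.9% after thinning. Macrophages, which should lack it, had it in 1.81% of cells and CD4 T cells in 5.22%. For *Ifng* the shares were 47.4 and 30.1%, and 29.2 and 17.5% after thinning, with 1.02% of macrophages. Both shares were higher in interferon-high cells in 6 of 6 runs. Within CD8 cells that held a *Gzmb* UMI, the interferon list had a median ratio of 4.31, and within those with an *Ifng* UMI 4.59. The rule genes split the classes within these subsets too, which favoured a high median, so nothing is read from it.

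Naive and progenitor genes were lower in part. The list had a median ratio of 0.832, with 0.969 among strict T cells, 0.933 under 5% mitochondrial UMIs and 0.960 without run 3, so its distance from the 0.948 of all genes depended on the cells and runs admitted. Of 12 widely detected genes 2 were lower and 0 higher, against 0.700 and 4.81% of all genes tested. *Cd28*, a costimulatory receptor and the most abundant gene of the list, had a ratio of 1.10. *Lef1* was at 8.43, 21.04 and 26.5 CPM in interferon-high cells and at 28.4, 44.6 and 71.2 CPM in comparison cells, a ratio of 0.417 that was 0.461 among strict T cells. *Lef1* had the lowest ratio of all genes tested, but the difference was not found in every cell state. Among cells with a *Pdcd1* UMI its ratio was 0.933, with *Pdcd1* and *Tcf7* 0.972 and with *Pdcd1* and *Havcr2* 2.82. Among cells with a *Gzmb* UMI it was 0.482, with an *Ifng* UMI 0.813 and with a *Mki67* or *Top2a* UMI 0.541. The cause was not tested. Over all cells the *Lef1* levels of the classes did not overlap. *S1pr1*, the receptor by which T cells leave tissue, had a ratio of 0.631 and also did not overlap. It missed the fold under several settings, among them a threshold of 3 UMIs (0.722), cells under 5% mitochondrial UMIs (0.742) and thinning (0.724). *Tcf7*, which encodes TCF1, the factor of naive and progenitor exhausted cells, had a ratio of 0.832 with overlapping ranges. *Ccr7*, the lymph node homing receptor, had a ratio of 0.710 but 2.46 in run 4, and 0.641 among strict T cells, where it was lower in every run. *Cd69*, an early activation antigen that interferon induces and that opposes *S1pr1* at the protein level, had a ratio of 1.46, with 235 to 367 CPM against 177 to 232 CPM.

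Exhausted states were represented among the interferon-high cells. Cells with both *Pdcd1* and *Tcf7* UMIs, the pair that marks progenitor exhausted cells, were 14.9% (CI 13.0 to 17.1%) of interferon-high and 10.9% (CI 10.4 to 11.6%) of comparison cells. After thinning these shares were 3.73 and 3.20%. By run the unthinned share was higher in interferon-high cells in 5 of 6 runs, and in run 5 it was 10.3 against 12.6%. Among macrophages a *Pdcd1* UMI was found in 2.38% and a *Tcf7* UMI in 1.24% of cells. Cells with *Pdcd1* and *Havcr2* UMIs, a pair of terminally exhausted cells, were 4.22 and 3.98%, with 1.19 and 1.21% after thinning. This share was higher in interferon-high cells in 1 of 6 runs only, run 3, with 7.46 against 4.32%. In run 3 a *C1qa* or *C1qb* UMI was present in 39.6% of interferon-high and 38.2% of comparison cells. The part of macrophage RNA in the share was not tested. The interferon list had median ratios of 3.80 among cells with *Pdcd1* and *Tcf7* and 3.45 among cells with *Pdcd1* and *Havcr2*. The rule genes split the classes within these states too, so nothing is read from these medians.

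Proliferation genes were at lower ratios. The cell cycle list had a median ratio of 0.744, beside 0.948 for all genes tested, with run medians from 0.398 to 0.916. Among strict T cells its median was 0.801, beside 0.942 for all genes tested, and 0 of its genes were lower by the measure used. *Stmn1*, a tubulin regulator of dividing cells, passed the fold with 0.666 over all cells. *Hmgb2*, a chromatin protein and the most abundant gene of the list, had a ratio of 0.808. The run ranges of *Stmn1* overlapped, and it missed the fold under several settings. Among them were strict T cells (0.752), a threshold of 3 UMIs (0.698), thinning (0.688), both classes within the depth quartiles of interferon-high cells (0.817) and cells without a *Mki67* or *Top2a* UMI (0.854). The share of cells with a *Mki67* or *Top2a* UMI, genes of dividing cells, was 29.3% in interferon-high and 28.2% in comparison cells, so this share did not follow the levels. After thinning it was 16.0 and 15.9%, and 16.2% of macrophages held a *Mki67* UMI. Tissue residence genes had a median ratio of 0.888, activation and costimulation genes 0.930, immediate early genes 1.07 and heat shock genes 1.02, with 0 genes past the fold in each over all cells. As 4.81% of all genes tested were higher and 0.700% lower, a count of 0 in lists of this size is near that share. Their most abundant genes *Rgs1*, *Il2rb*, *Junb* and *Hspa8* had ratios of 1.08, 0.974, 1.08 and 0.956. Among strict T cells *Cd69* passed the fold with 1.53.

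Of the 20 genes with the highest ratios 16 were in the interferon lists, which the choice of the classes favoured. Of the other 4, *Phf11a*, from a family of close copies, had a ratio of 12.1, and the remaining genes *Csn3*, *Lcn2* and *Wfdc18* are products of mammary epithelium. Genes with the lowest ratios came from several functions. *Cd7*, a surface protein of T and natural killer cells, was at 41.1 to 99.9 CPM against 86.5 to 151 CPM, a ratio of 0.538. *Bbc3*, which encodes the apoptosis promoter PUMA, had a ratio of 0.545 with no overlap. *Rrp15* and *Ppan*, which take part in the making of ribosomes, had ratios of 0.529 and 0.549 and remained lower among strict T cells with 0.505 and 0.504. *Rcl1*, also a ribosome maturation factor, had a ratio of 0.577. *Apoe*, which macrophages held at 40124 CPM, had a ratio of 0.562 over all cells and 0.888 among strict T cells.

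Markers of other cell types moved with some of these results. All 8 mammary epithelium genes had ratios above 1, with a median of 10.2, and their summed level was 45.9, 13648, 899, 5956, 102 and 447 CPM in interferon-high cells of runs 1 to 6. In comparison cells it was 51.7, 410.5, 369, 462, 271 and 152 CPM, and 0 of the genes were at 0 UMIs in interferon-high cells. *Wfdc18*, the most abundant of them, had 94.1% of its UMIs in 10 cells. Among strict T cells the list summed to 121 CPM in interferon-high and 129 CPM in comparison cells, with a median ratio of 0.886. Strict T cells leave out cells with an *Epcam* or *Krt8* UMI, so the loss of the difference there was partly set by their definition.

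Macrophage genes summed to 216, 426, 7646, 253, 245 and 209.6 CPM in interferon-high cells of runs 1 to 6 and to 140.4, 3514, 8928, 524, 663 and 312 CPM in comparison cells. Among strict T cells the sums were 397 and 192 CPM. *Apoe* was the most abundant, 2 of 10 genes had ratios above 1, and 0 were at 0 UMIs. Plasmacytoid dendritic cells, a known source of type I interferon, had 8 marker genes, of which 0 had a ratio above 1 and 0 were at 0 UMIs. Their sum was 10.2 to 139.6 CPM in interferon-high and 71.3 to 332 CPM in comparison cells, with *Ly6d* the most abundant. Fibroblast genes, 6 of 6 with ratios above 1 and 0 at 0 UMIs, summed to 0, 6.07, 420.4, 2.11, 1179 and 0.633 CPM in interferon-high cells of runs 1 to 6, with *Dcn* the most abundant. In comparison cells they summed to 261, 7.90, 98.4, 25.4, 3.27 and 0.927 CPM, and among strict T cells to 127 CPM in interferon-high and 2.27 CPM in comparison cells. Runs 3 and 5 were thus the high runs in interferon-high cells and run 1 in comparison cells, and the part of this RNA in their values was not tested. The interferon list had a median ratio of 4.84 among strict T cells against 4.61 over all cells. The same rule genes set the classes there, so nothing is read from this about RNA of other cell types.

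The promoters of the leading genes were searched for a regulatory element known from interferon-stimulated genes. The motif was GAAANNGAAA, the core of an interferon-stimulated response element, on both strands, in RefSeq promoters of GRCm38.p6 from 250 bases before to 50 bases after a gene's start. Of the 20 genes with the highest ratio 15 had a promoter in the table, and 9 of these (60.0%, CI 32.3 to 83.7%) held the motif. Among the 20 genes with the lowest ratio 1 of 12 held it, *Lactb*. Both rule genes with an entry, *Ifit1* and *Ifit3*, held it; *Mx1* had no entry. It was held by 1079 of all 27025 genes in the table (3.99%). The leading genes were found with classes that interferon genes had set, so nothing is read from the distance between these shares. A match describes the letters of the window and does not show binding.

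Stretches of 5 promoters are shown, each 5′ to 3′ on the strand of its gene, for the rule genes with an entry and for *Cxcl10*, *Isg15* and *Rsad2*, the 3 most abundant interferon genes among the 20 of highest ratio. Capitals mark the motif on either strand. In *Ifit1* (chr19:34640739-34640838, plus strand) and *Ifit3* (chr19:34583342-34583441, plus strand) it occurs 2 times, read on the opposite strand. In *Cxcl10* (chr5:92349068-92349139, minus strand) it occurs 1 time, in *Isg15* (chr4:156200850-156200949, minus strand) 3 times in overlap, and in *Rsad2* (chr12:26456538-26456637, minus strand) 1 time, on the opposite strand.
Ifit1: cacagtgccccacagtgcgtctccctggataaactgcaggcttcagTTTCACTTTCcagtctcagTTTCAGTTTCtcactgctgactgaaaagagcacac
Ifit3: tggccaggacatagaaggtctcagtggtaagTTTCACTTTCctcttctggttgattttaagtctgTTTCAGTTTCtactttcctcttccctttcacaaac
Cxcl10: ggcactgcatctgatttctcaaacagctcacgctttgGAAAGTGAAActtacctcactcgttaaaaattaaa
Isg15: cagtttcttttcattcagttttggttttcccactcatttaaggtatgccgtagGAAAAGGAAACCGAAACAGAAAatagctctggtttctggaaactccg
Rsad2: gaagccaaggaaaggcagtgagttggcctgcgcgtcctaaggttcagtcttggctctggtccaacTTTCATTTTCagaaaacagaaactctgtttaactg

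The rule genes were also found in other cells of the same runs. Interferon-high cells were chosen by these genes, so levels are not compared with theirs. The 3 genes summed to 147, 49.7, 56.0, 206, 20.6 and 78.8 CPM in CD4 T cells of runs 1 to 6, and these classes held 294, 22, 24, 109, 32 and 17 cells. In macrophages the sums were 19.2, 71.8, 87.0, 37.1, 30.9 and 79.9 CPM. Run 3, with the largest share of interferon-high cells, was highest in macrophages (CI 81.7 to 92.6 CPM), where its interval overlapped those of runs 2 and 6, but not in CD4 T cells, where runs 1 and 4 were highest. Run 5, with the smallest share, had the lowest CD4 value, which rested on 4 UMIs (CI 5.62 to 52.8 CPM), and its interval overlapped those of runs 2, 3 and 6.

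In the CD11c-selected matrix the rule found 4 cells among 82 with a *Cd8a* and no *Cd4* UMI. Of the 4 cells 1 had a *Cd3d*, *Cd3e* or *Cd3g* UMI, and of the 82 cells 24 did, so most were not shown to be T cells. The 4 cells had a median of 22085 UMIs, and *Isg15* stood at 719 CPM in them and at 61.8 CPM in the 80 comparison cells of that matrix. With 4 cells, nothing further is read from these values.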

How the data were processed

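Single-cell RNA counts of tumor T cells were analysed as the authors deposited them, as whole-number UMI counts per gene and cell barcode in 1 matrix for the CD4/CD8-selected cells and 1 for the CD11c-selected cells. Per the submitters' processing notes, Cell Ranger 3.0.2 and mm10 were used upstream. Gene symbols and cell barcodes came with the deposited counts, and 30431 of 31053 symbols (98.0%) were found in GENCODE M21. Each matrix pooled 6 samples, and columns of per-sample values not used numbered 0. The 19528 cells kept from 23101 barcodes of the CD4/CD8 matrix held 128084234 UMIs, from 13272316 to 29805886 per barcode run. Barcode runs are stretches of the barcode list in alphabetical order.

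Interferon-high cells, comparison cells and gene lists were chosen with earlier results of these data known. Levels were summed UMIs per class and run, divided by all UMIs of the class. Ratios were Mantel-Haenszel rate ratios with runs as strata. Genes were counted as higher or lower at a ratio of at least 1.5 or at most 1/1.5 with the same direction in every run with at least 20 interferon-high cells, among genes found in at least 10% of either class. The procedure was tested on simulated counts. Genes to name were drawn from the 3 rule genes, those with the most UMIs in each list or against its direction, and the 20 of highest and 20 of lowest ratio, and not all of these are named. Genes outside that choice, such as *Cxcr3*, *Tnf* or *Mb21d1*, were named for their roles after their values were seen. Thinning drew 2000 UMIs per cell with random seed 1. CD4 T cells had a *Cd4* and a *Cd3e* UMI and 0 *Cd8a* UMIs; macrophages had at least 2 UMIs of *C1qa* and *C1qb* and 0 of *Cd3d*, *Cd3e* and *Cd3g*. Doublets were not called; strict T cells and leaving out the 5% of cells with the most UMIs stood in as alternatives. Other alternatives changed the threshold, the filters, the cells compared, the totals or the runs. Promoters were RefSeq sequences of GRCm38.p6. Python 3.11.15 was used with numpy 2.4.6, scipy 1.17.1, pandas 2.3.3 and matplotlib 3.10.9. Some genes, and a cell state that used one of them, are not reported here.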

Additional observations from a re-analysis of the deposited data

Results flagged for a closer look

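A value was singled out when the gap between 1 of the 6 barcode runs and its nearest neighbour, divided by the whole range, passed Dixon's critical value at the 95% level. Chance does this in about 1 in 20 such groups, and 5 of 15 groups looked at passed. The groups overlap in their cells, and runs are not labelled samples.

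The share of interferon-high cells in run 3 was 16.29%, far above the next run. After thinning to 2000 UMIs it was 8.597%, and among strict T cells 15.92%, again far above the other runs in both. In run 5 the median ratio of the interferon genes outside the rule was 6.144, above 4.85 in the next run; this run had 68 interferon-high cells. In run 2 the ratio of *Ifng* was 2.879, above 1.85 in run 3.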

How the results depend on the processing

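No paired analysis was possible because the matrix pools its samples with no map from cells to samples, so replicate numbers could not be assigned to cells. The share of interferon-high cells, 8.37%, was 10.7% with a threshold of 3 UMIs, 6.19% with 6 UMIs, 7.91% among strict T cells, 9.48% among cells under 5% mitochondrial UMIs and 4.14% after thinning to 2000 UMIs; leaving out each run in turn gave 6.76 to 8.996%, the lowest without run 3. The interferon list had a median ratio of 4.13 with a threshold of 3 UMIs, and 4.53 to 4.78 when each run was left out.

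The 261 higher genes became 167 when the fold was 2. The count of 38 lower genes was the least stable result. It was 20 with a threshold of 3 UMIs, 87 with 6 UMIs, 13 after thinning, 61 without cells holding a *Mki67* or *Top2a* UMI, and 73 without the 5% of cells with the most UMIs. It was 128 with both classes within the quartiles of the depth of interferon-high cells (593 and 5291 cells), 81 with means over cells, 94 with genes found in 5% of cells and 1 at a fold of 2. Leaving out each run gave 33 to 66, with 66 without run 3 and 59 without run 6. The cause was not tested, apart from the stricter fold and the larger number of genes admitted at 5%.

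Over all settings the medians were 0.887 to 1.02 for exhaustion, 0.787 to 0.969 for naive and progenitor and 0.954 to 1.06 for effector genes. Of 779 values of 41 of the named genes under these settings, 765 lay between the lowest and highest single-run ratio of the same gene. Another 14 lay outside that range, and 0 changed direction. Such ranges can be wide, as for *Slfn5* with 14.7 to 65.3, so lying within them does not mean that a value was unchanged. *Irf8*, not among the 41, went from 0.676 to 1.22 among strict T cells. The settings moved the median of all genes from -0.08 (log2) to between -0.12 and -0.06. Runs 4 and 5 were left out together as an alternative chosen after seeing the data, which gave a share of 8.81%, 265 higher and 36 lower genes. Genes below 10% of cells in both classes were not counted, and depth limits statements on rare genes such as *Havcr2* and *Cxcl9*.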

Other observations

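*Ifi208*, a member of the Ifi200 family, differed between runs in both classes of CD8 cells. In interferon-high cells it was at 31.6, 25.2 and 39.0 CPM in runs 1 to 3 and at 142, 184 and 164 CPM in runs 4 to 6. In comparison cells it was at 2.90, 3.71 and 2.73 CPM and at 19.8, 14.3 and 19.1 CPM. Its ratio was 9.14 (6.79 to 14.3 in single runs). *Mid1*, a ubiquitin ligase gene, was likewise at 1.37 to 7.82 CPM in comparison cells of runs 1 to 3 and at 20.6 to 44.5 CPM in runs 4 to 6, with a ratio of 0.889. Runs were not linked to samples or genotypes, and the cause was not tested. Both genes were picked out after their values were seen.

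Among genes outside the lists, and likewise chosen after their values were seen, *Pml*, which encodes the scaffold of nuclear bodies, had a ratio of 6.54 and *Daxx*, a histone chaperone found in the same bodies, 5.75. *Rnf213*, a large ubiquitin ligase, had a ratio of 4.74 and *Trim21*, an intracellular antibody receptor, 4.39. *Nampt*, an enzyme of NAD synthesis, had a ratio of 3.09.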
